A study of Mus musculus with 6 samples.

Results

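The insulin-like growth factor (IGF) system was examined in primary uterine stromal cells as 10 genes chosen by symbol: the ligands Igf1 and Igf2, the receptors Igf1r and Igf2r, and the binding proteins Igfbp2 to Igfbp7. All 10 were found among the 54232 genes of the count table. RNA-seq compared 3 WT with 3 Pbrm1 cKO samples to find genes whose expression depends on Pbrm1, which encodes the PBRM1 (BAF180) subunit of the PBAF form of the SWI/SNF chromatin remodeler. Uteri came from females of 8 to 12 weeks on day 4 (D4), which the labels give both as pregnancy and as pseudopregnancy. Mutant females carried Pbrm1 fl/fl with PR-IRES-cre, so deletion followed the progesterone receptor and was not limited to stroma. Controls are labelled WT, and the study's methods describe them as Pbrm1 fl/fl, so effects of the cre allele and of the deletion cannot be told apart. No further treatment was given to either group. Between 5 and 10 uterine horns went into a preparation, and the cells were plated for 4 hours and a further 2 hours before RNA was taken. The study calls its replicates biological, but no label ties them to separate animals, so p-values measure the spread between these samples.

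IGF-I and IGF-II are secreted growth factors that signal through the tyrosine kinase IGF1R, whereas IGF2R, also the mannose 6-phosphate receptor, takes IGF-II up for degradation. Binding proteins hold IGFs outside the cell, extend their life and control how much reaches the receptor, and proteases such as PAPP-A cut some of them to free the ligand. In the rodent uterus, stromal IGF1 is known as an estrogen-induced signal that reaches the epithelium.

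Transcripts of 5 of the 6 binding proteins were lower in Pbrm1 cKO cells, and Igfbp2 had almost no counts in either group. Of the 10 genes, 9 were abundant enough to be tested, of which 5 were lower and 1 was higher in Pbrm1 cKO at an adjusted p under 0.05 (DESeq2 over all genes, Benjamini-Hochberg adjustment). Igfbp4 and Igfbp6 fell to about 33% and 34% of WT, Igfbp5 to 46.9%, Igfbp3 to 51.5% and Igfbp7 to 70.9%. Igf1 was 1.23-fold higher, a call that was lost in 6 of 15 other settings. Among all 17474 genes tested, 15.2% were lower and 15.9% were higher, and the median log2 fold change was -0.000744. The median over the 9 IGF genes was -0.93, which is the value of Igfbp2 itself, a gene with almost no counts. It was -0.72 over the 8 without Igfbp2, and -0.49 over the 9 when Pbrm1 cKO replicate 2 was left out.

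The following promoter windows are those of the lowered binding protein genes, shown because these genes moved in the same direction. Each holds the 250 bases before a RefSeq transcription start on the gene's own strand (GRCm38.p6). Capitals mark matches on either strand to 4 short motifs. The TATA box was searched as TATAAA and the element known as the GC box as GGGCGG. The AP-1 site was searched as TGANTCA, and the box named for its letters as CCAAT. No matches overlap in the windows shown. The windows of Igf1 and Igfbp5 lie partly in an annotated exon of their own gene and are not shown. The windows are chr11:7213924-7214173 for Igfbp3 (minus strand), chr11:99040994-99041243 for Igfbp4 (plus strand), chr15:102143936-102144185 for Igfbp6 (plus strand) and chr5:77408046-77408295 for Igfbp7 (minus strand).
Igfbp3: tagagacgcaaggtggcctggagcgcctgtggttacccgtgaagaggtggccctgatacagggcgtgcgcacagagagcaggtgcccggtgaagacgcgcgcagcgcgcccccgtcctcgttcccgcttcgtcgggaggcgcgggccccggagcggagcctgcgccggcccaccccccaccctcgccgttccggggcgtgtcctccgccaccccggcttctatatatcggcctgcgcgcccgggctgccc
Igfbp4: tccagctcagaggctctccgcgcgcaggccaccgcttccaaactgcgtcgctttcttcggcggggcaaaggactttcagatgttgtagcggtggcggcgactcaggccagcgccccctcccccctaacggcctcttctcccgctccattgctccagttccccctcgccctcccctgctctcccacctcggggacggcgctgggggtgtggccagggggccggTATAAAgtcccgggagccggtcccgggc
Igfbp6: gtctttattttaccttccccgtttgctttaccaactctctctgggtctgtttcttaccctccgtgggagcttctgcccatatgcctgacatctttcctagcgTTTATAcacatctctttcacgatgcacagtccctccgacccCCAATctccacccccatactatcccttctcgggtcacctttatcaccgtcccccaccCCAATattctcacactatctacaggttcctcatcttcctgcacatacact
Igfbp7: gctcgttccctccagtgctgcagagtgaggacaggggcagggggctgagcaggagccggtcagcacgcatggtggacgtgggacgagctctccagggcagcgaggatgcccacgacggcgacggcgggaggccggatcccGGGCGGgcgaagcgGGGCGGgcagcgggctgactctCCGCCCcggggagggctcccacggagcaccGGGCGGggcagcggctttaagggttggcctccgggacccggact

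None of the 4 motifs was found in all 4 windows. Igfbp4 held 1 TATA box at -28 from the start site. Igfbp6 held 1 TATA box on the opposite strand at -148 and CCAAT boxes at -107 and -50. Its RefSeq start site, 102144186, lies upstream of the gene start in the count table, 102144362. Bases just after that start site were not found in a GENCODE transcript of Igfbp6, unlike for the other windows shown. Igfbp7 held 4 GC boxes, and Igfbp3 held no match to any of the 4 motifs. CpG dinucleotides numbered 32 in Igfbp3, 26 in Igfbp7, 22 in Igfbp4 and 7 in Igfbp6, where the median window had 6. GC content was 73.2%, 74%, 69.2% and 49.6% in the same order, where the median window had 52.4%. For comparison, among the 32536 RefSeq windows of this length, 12.3% held the TATA box, 33.8% the CCAAT box, 33% the GC box and 6.73% the AP-1 site. A match describes the letters only.

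Library totals ranged from 13253575 to 18338667 counts. The WT libraries varied more than the Pbrm1 cKO libraries, with a biological coefficient of variation (edgeR) of 0.16 against 0.0468, and WT replicate 1 differed from the other WT libraries in several marker lists. Pbrm1 fell to 29.6% of WT, from 1472 ± 178 to 436 ± 33.9 normalized counts (SD, 3 libraries per group), with a log2 fold change of -1.76 (SE 0.13, DESeq2 adjusted p = 5.19e-40). The counts of called markers that follow stand beside 15.9% higher and 15.2% lower over all genes, and counts of 1 to 4 in lists this small are given as a description. Stromal markers were high in every library, with summed normalized counts of 113257 to 131160 in WT and 87790 to 94390 in Pbrm1 cKO, and 7 of 14 were lower and 1 higher. Leukocyte markers were higher for 13 of 14 tested genes and summed to 4567, 10192 and 9726 in WT against 42360 to 43761 in Pbrm1 cKO, while the natural killer gene Nkg7 had at most 3 counts in every library. For endothelial markers the sums were 3383, 6944 and 6981 in the controls, in replicate order, against 3043 to 3616 in the mutants, with 1 of 12 higher and 3 lower. Epithelial markers (2011 to 3650 against 3720 to 3877) were higher for 4 of 15, and the gland gene Foxa2 was at the floor of 3 counts. Smooth muscle markers (59648 to 65332 against 55214 to 57130) were lower for 6 of 11, and none of 6 mesothelial markers (42.8 to 72.1 against 88.8 to 113) was called by DESeq2. Of the marker lists, the stromal one had the largest sum in every library, and transcripts of the other cell types were present. In such bulk RNA, fewer cells of a type and less RNA per cell cannot be told apart.

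**Figure D1:**
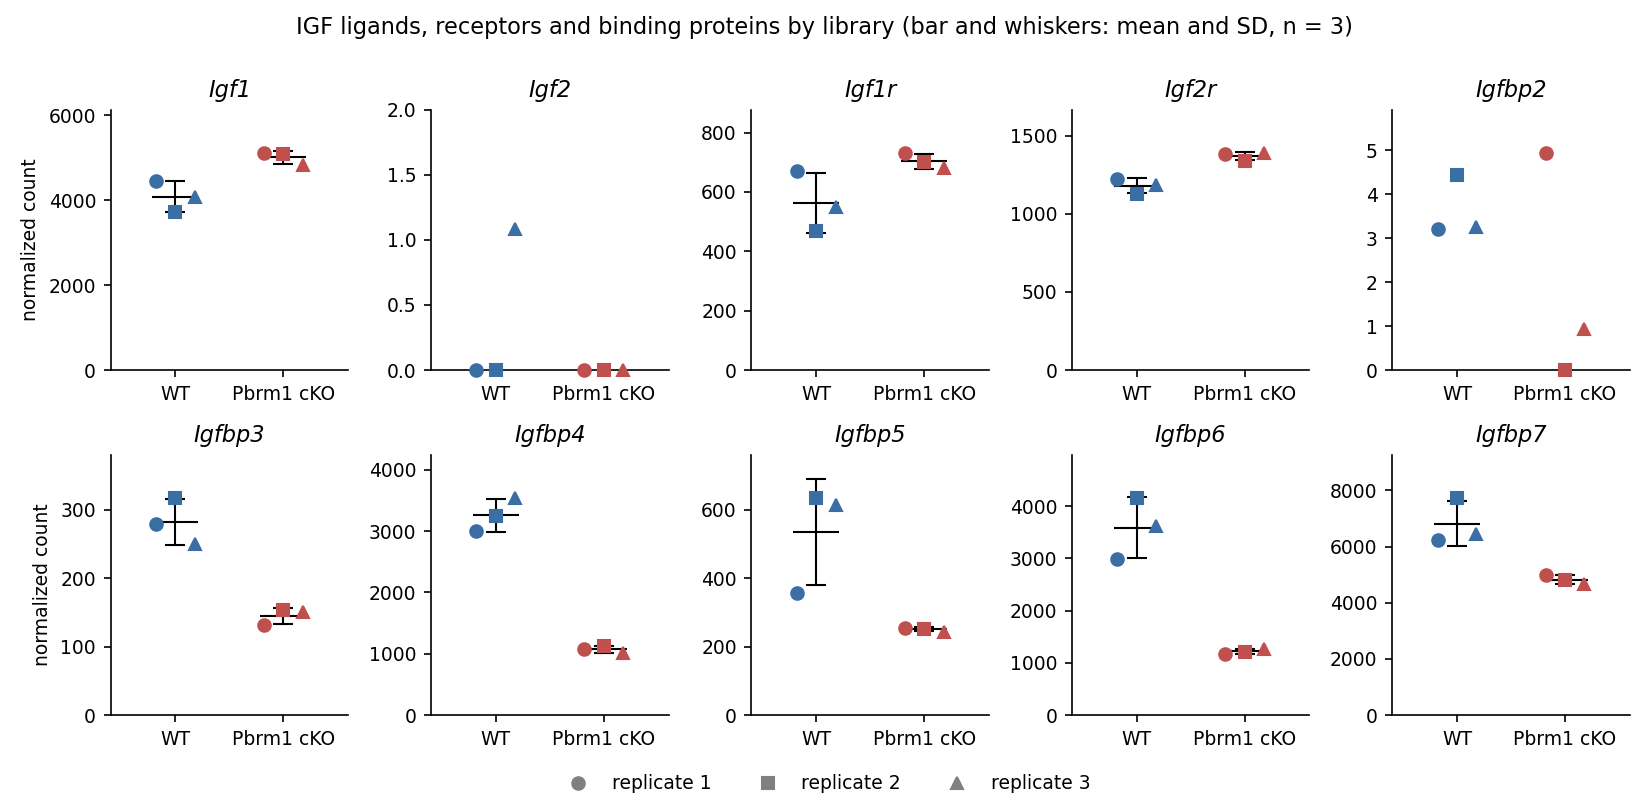
Normalized count of each IGF gene (y axis, from 0) in 3 WT and 3 Pbrm1 cKO libraries, with bars and whiskers for the mean and SD except for Igf2 and Igfbp2, which had almost no counts. The 5 lowered binding proteins and the 3 genes Igf1, Igf1r and Igf2r have groups that do not overlap, beside 48.6% of all genes tested.

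Igf1 was the only ligand with more than background counts. The gene lies at chr10:87858265-87937042 on the plus strand (GRCm38/mm10, as for all genes here) and has 9904 bases of exon. In replicate order, the controls held 4449, 3708 and 4077 normalized counts and the mutants 5104, 5086 and 4817. Every mutant library was above every control, and WT replicate 1 came closest to the mutant range. This is a log2 fold change of 0.29 (SE 0.10, 95% interval 0.10 to 0.49, DESeq2 adjusted p = 0.0106). Among the called IGF genes, this call was lost in the most settings. It was lost without WT replicate 2 (adjusted p = 0.0711), without Pbrm1 cKO replicate 1 (0.082), without Pbrm1 cKO replicate 2 (0.089) and when the trend of each library with gene length was removed (0.16 on the log2 scale, adjusted p = 0.174). Macrophages also express Igf1, and the macrophage genes Csf1r and Adgre1 rose by 2.59 and 1.75 on the log2 scale (adjusted p = 1.62e-72 and 3.88e-20). Their part in the rise of Igf1 was not tested. The antisense gene Igf1os overlaps Igf1 and had 0 to 4 counts per library, and counting used strand.

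Igf2, the fetal growth ligand (chr7:142650766-142666816, minus strand), was essentially unexpressed. It had 1 count in WT replicate 3 and 0 in the other 5 libraries. A count of 0 allows up to 3 counts, or 0.164 to 0.226 CPM (counts scaled by library total) depending on the library, so no fold is given. Its imprinted neighbour H19, a noncoding RNA 72.6 kb away, was measurable, with 44.9, 79.9 and 54 normalized counts in controls against 32.6, 24.8 and 30 in mutants. H19 was lower in every mutant library (log2 fold change -1.04, SE 0.35, DESeq2 adjusted p = 0.0117), a call lost without WT replicate 2, without Pbrm1 cKO replicate 2, with a replicate block and in a test against 0.58.

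Neither receptor passed the test. For both the groups did not overlap, which held for 48.6% of all genes tested. Igf1r, the signaling receptor (chr7:67952827-68233668, plus strand, 16791 exon bases), had control values of 672, 469 and 548 normalized counts and mutant values of 731, 700 and 681. The WT libraries spread widely, with replicate 1 near the mutant level. Its log2 fold change was 0.32 (SE 0.15, 95% interval 0.03 to 0.61, adjusted p = 0.0805), and it was 0.47 (adjusted p = 0.000931) when WT replicate 1 was left out and 0.20 (adjusted p = 0.33) when WT replicate 2 was. Igf2r, the clearance receptor (chr17:12682406-12769664, minus strand, 9438 exon bases), had control values of 1226, 1128 and 1188 and mutant values of 1382, 1342 and 1390. The spread within each group was small, and the log2 fold change was 0.22 (SE 0.09, 95% interval 0.04 to 0.40, DESeq2 adjusted p = 0.059). Without WT replicate 1 it was 0.24 (adjusted p = 0.0322). edgeR (adjusted p = 0.0399) and limma voom (0.0443) called Igf2r, and voom called Igf1r (0.0341). Airn, the imprinted antisense RNA that overlaps Igf2r, had 29.1 ± 10.7 and 15.1 ± 4.84 normalized counts in control and mutant libraries (SD, 3 libraries per group), a difference that was not called (DESeq2 adjusted p = 0.133) except when WT replicate 1 was left out (log2 fold change -1.23, adjusted p = 0.0456).

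Igf1, Igf1r and Igf2r are long transcripts, and fold changes rose with length across the table. The median log2 fold change was -0.16 over the shortest of 5 equal groups of tested genes (56 to 1680 exon bases, with Igfbp6 and Igfbp7 among them) and 0.12 over the longest (6785 to 123179 exon bases, with Igf1, Igf1r and Igf2r among them). In that longest group 28.2% of genes were higher and 12.6% were lower. With the length trend removed, Igf1, Igf1r and Igf2r had log2 fold changes of 0.16, 0.10 and 0.08, and none was called. Whether the trend is technical was not tested.

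Igfbp4 (chr11:99041244-99054392, plus strand) encodes an inhibitor of IGF action that PAPP-A cuts. It had the lowest log2 fold change of the IGF genes in the fit of all 6 samples. Controls held 2997, 3244 and 3534 normalized counts and mutants 1082, 1131 and 1013. The lowest WT library was far above the highest mutant library, and both groups were tight. That fold change was -1.60 (SE 0.10, DESeq2 adjusted p = 4.22e-51), and only 4.07% of tested genes had a value as low. It stayed between -1.66 and -1.54 in all 15 other settings and was called in each.

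Igfbp6, a binding protein that prefers IGF-II (chr15:102144362-102149511, plus strand), fell almost as far. Controls held 2992, 4152 and 3630 normalized counts, whereas mutants held 1178, 1218 and 1262. WT replicate 1 was the lowest control and was still well above the mutant libraries. The log2 fold change was -1.56 (SE 0.13, DESeq2 adjusted p = 3.25e-31). It was -1.67 without WT replicate 1, below the value of Igfbp4 in that fit, and -1.41 with the length trend removed. Igfbp6 was called in all 15 settings.

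Igfbp5, a matrix-associated binding protein (chr1:72857932-72874884, minus strand), fell from 357, 634 and 614 normalized counts in the controls to 256, 253 and 244 in the mutants. WT replicate 1 was the control closest to the mutant libraries, and the coefficient of variation was 28.9% in WT against 2.45% in Pbrm1 cKO. DESeq2 gave a log2 fold change of -1.09 (SE 0.21, adjusted p = 1.72e-06). It was -1.32 when WT replicate 1 was left out and -0.96 when WT replicate 2 was. The summed endothelial markers given above were likewise lowest among controls in WT replicate 1 and low in the mutant libraries. Their part in the fall of Igfbp5 was not tested.

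Igfbp3, the main IGF carrier of serum (chr11:7206086-7213923, minus strand), fell from 280, 317 and 250 normalized counts in the controls to 132, 153 and 151 in the mutants. The groups were well apart and WT replicate 1 was in the middle of the controls. This is a log2 fold change of -0.95 (SE 0.17, DESeq2 adjusted p = 2.95e-07). Leaving out single libraries moved it only from -1.04 to -0.87.

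Igfbp7, which binds IGFs weakly (chr5:77349240-77408041, minus strand), had the highest level per kilobase and the smallest fall among the called binding proteins. Controls held 6234, 7720 and 6460 normalized counts and mutants 4999, 4805 and 4675. All mutant libraries were below all controls. Its log2 fold change was -0.50 (SE 0.11, DESeq2 adjusted p = 2.93e-05), -0.40 without WT replicate 2 and -0.36 with the length trend removed (adjusted p = 0.00453). Polr2b, an RNA polymerase II subunit gene that overlaps Igfbp7 on the other strand, had a log2 fold change of -0.24 (adjusted p = 0.134), and in the fit lacking WT replicate 3 it was lower at -0.34 (adjusted p = 0.00285).

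Igfbp2 (chr1:72824503-72852474, plus strand), a secreted binding protein abundant in fetal tissues, was close to absent. Controls had 3, 4 and 3 counts and mutants 5, 0 and 1, so the groups overlapped and the test had almost no counts to work with (DESeq2 adjusted p = 0.671). Igfbp2 and Igfbp5 lie 5.46 kb apart, and only Igfbp5 was expressed at a measurable level. Over the 9 tested genes, the groups did not overlap for 8, against 48.6% of all genes tested.

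**Figure D2:**
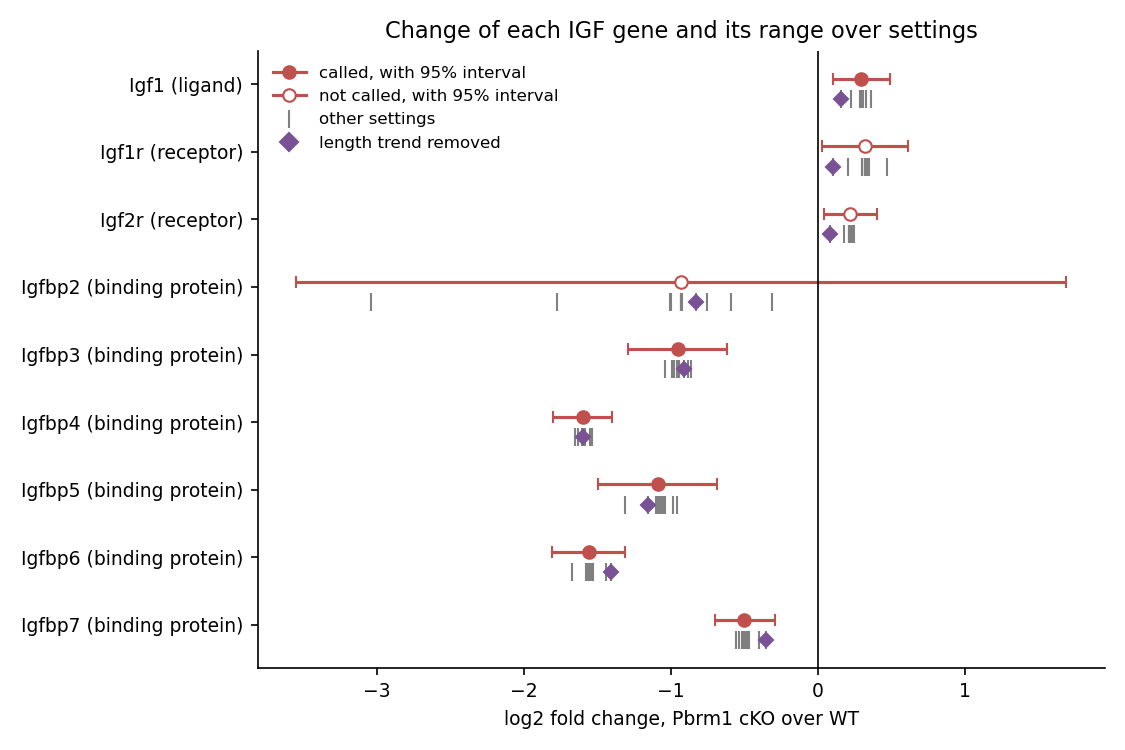
Log2 fold change of each tested IGF gene (x axis, Pbrm1 cKO over WT), with its 95% interval, the values under other settings as ticks and the value with the length trend removed as a diamond. Igfbp4 and Igfbp6 lie farthest below 0, and the diamonds of Igf1, Igf1r and Igf2r lie closest to 0.

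Levels were compared between genes as normalized counts per kilobase of exon. In WT the order was Igfbp7 (5628 ± 662), Igfbp6 (3229 ± 523), Igfbp4 (738 ± 60.8), Igf1 (412 ± 37.4), Igf2r (125 ± 5.26), Igfbp3 (90.2 ± 10.8), Igfbp5 (89.1 ± 25.7), Igf1r (33.5 ± 6.09) and Igfbp2 (1.97 ± 0.38; SD, n = 3 each). Igfbp3 and Igfbp5 did not differ beyond their spread, whereas the other neighbours in this order had separate ranges. In Pbrm1 cKO the first places were still Igfbp7 (3992 ± 135) and Igfbp6 (1096 ± 37.8), but Igf1 (505 ± 16.2) now stood above Igfbp4 (244 ± 13.4). Igf1 was below Igfbp4 in every WT library and above it in every Pbrm1 cKO library. Igf1r (41.9 ± 1.5) and Igfbp5 (41.8 ± 1.02) were at the same level in Pbrm1 cKO within their spread, and the range of Igfbp3 (42.2 to 49) touched both.

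**Figure D3:**
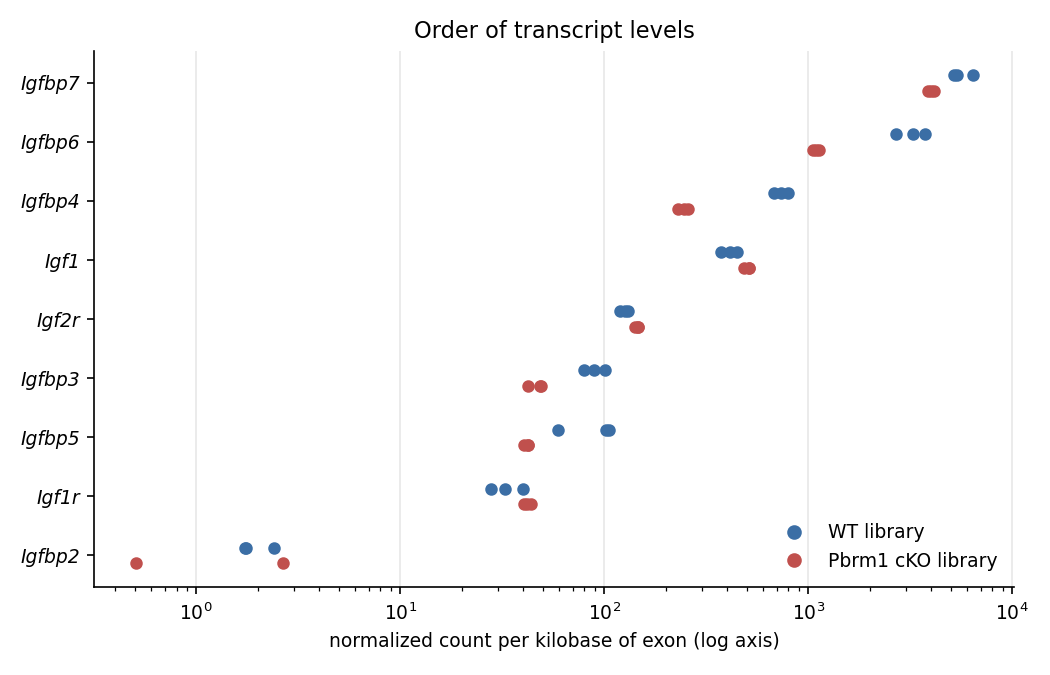
Normalized count per kilobase of exon (x axis, log scale) of 9 IGF genes in each WT and Pbrm1 cKO library. Igf1 and Igfbp4 change places between the groups, while Igf2 and 1 Pbrm1 cKO library of Igfbp2 at 0 are not drawn.

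Summed over Igfbp2 to Igfbp7, binding protein transcripts came to 1677, 2028 and 1809 TPM (counts per exon length, scaled to the same total in every library) in controls and to 1229, 1179 and 1115 TPM in mutants. The groups were apart, with a ratio of means of 0.639. On the DESeq2 scale per kilobase the ratio was 0.555, so the size of the fall depended on the scaling. Without Igfbp7, the weak binder, the sum went from 780 ± 90.5 to 309 ± 4.65 TPM (SD, 3 libraries per group), a ratio of 0.397. The makeup changed as well. Igfbp7 took 57.6% ± 1.86 of the sum in WT and 73.6% ± 1.09 in Pbrm1 cKO, whereas Igfbp6 took 32.9% ± 1.67 and 20.2% ± 1.08, and Igfbp4 took 7.6% ± 0.873 and 4.49% ± 0.214. The Igf1 level per 100 of the summed binding protein level, both per kilobase, was 5.18, 3.38 and 4.29 in controls against 9.33, 9.48 and 9.14 in mutants. Igf1 is in the longest length group, and Igfbp6 and Igfbp7 are in the shortest. Neither this ratio nor the sums were corrected for the length trend. These sums describe RNA and carry no test, since their members were chosen with results known.

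**Figure D4:**
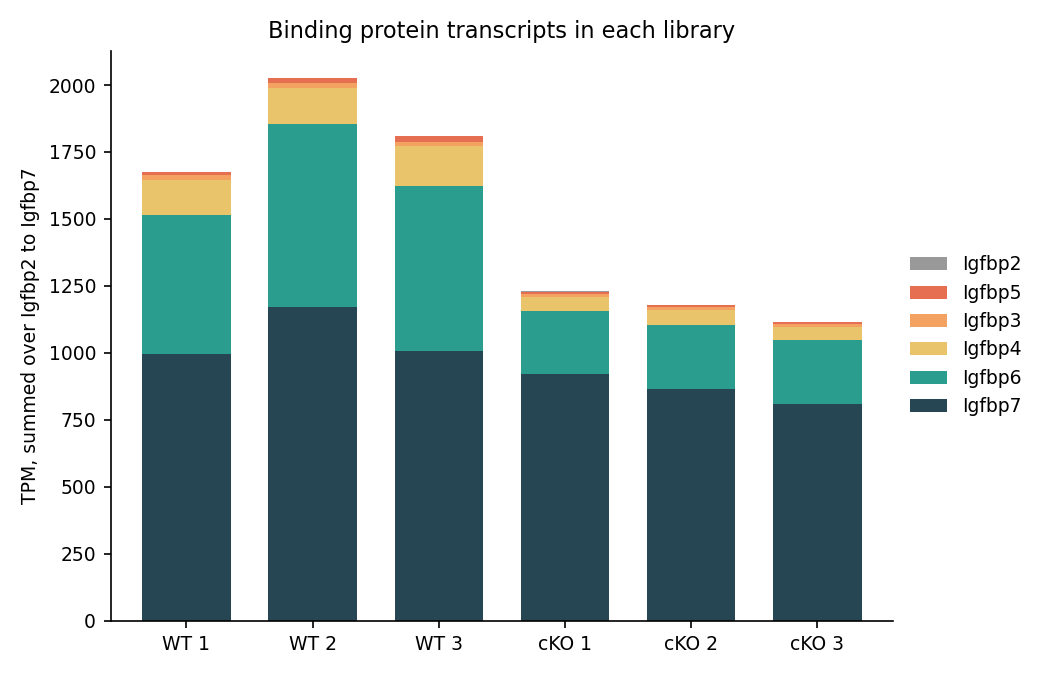
TPM of the 6 binding protein genes, stacked, in each library (y axis, TPM from 0). The WT bars reach 1677 to 2028 and the Pbrm1 cKO bars 1115 to 1229, with Igfbp6 and Igfbp4 shrinking more than Igfbp7.

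Among 47 other genes of the pathway, 39 were tested, of which 11 were higher and 7 lower in Pbrm1 cKO (median log2 fold change 0.15). Over all tested genes 15.9% were higher and 15.2% lower, and the lower count of the pathway lies near that share. Many pathway genes are long, and in the longest length group 28.2% of genes were higher, with a median log2 fold change of 0.12. With the length trend removed, at least 8 pathway genes were still called higher. Insr, the insulin receptor that can pair with IGF1R, was not called, with 307 ± 36.4 and 386 ± 8.84 normalized counts in control and mutant libraries (log2 fold change 0.33, DESeq2 adjusted p = 0.0618). It was called higher by edgeR (adjusted p = 0.038), by limma voom (0.0304) and by DESeq2 without WT replicate 3 (log2 fold change 0.42, adjusted p = 0.0125). The insulin genes were at the floor. Other carriers had few or no counts. Igfbp1, a decidual product in humans, had control counts of 0, 5 and 1 and mutant counts of 1, 0 and 0, and Igfals, the subunit that stabilizes circulating IGF complexes, had 1 count in all libraries together.

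Of 6 tested proteases and inhibitors that act on binding proteins, 2 were higher and 1 was lower, the latter near the 15.2% over all genes (15.9% were higher). Pappa, which encodes the protease that cuts IGFBP4, went from 79.1, 123 and 117 normalized counts in controls to 214, 260 and 230 in mutants. It rose 2.21-fold with no overlap (log2 fold change 1.15, SE 0.21, DESeq2 adjusted p = 5.33e-07). Stc2, which encodes an inhibitor of that protease, went from 633, 809 and 940 to 301, 319 and 353. It fell to 40.8% of WT (log2 fold change -1.29, SE 0.16, DESeq2 adjusted p = 8.8e-14). Both calls held in every fit that left out 1 library.

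Of 7 tested receptor adaptors, 1 was higher and 2 were lower, beside 15.9% and 15.2% over all genes. Irs1, the docking protein that couples IGF1R to PI3K, had control values of 617, 422 and 385 normalized counts and mutant values of 144, 174 and 144. It fell to 32.5% of WT (log2 fold change -1.62, SE 0.20, DESeq2 adjusted p = 5.58e-14), with no overlap. Grb2, the adaptor to RAS, had control values of 140, 206 and 423 and mutant values of 583, 567 and 566. The controls of Grb2 spread widely. Its call (log2 fold change 1.16, SE 0.46, DESeq2 adjusted p = 0.04) was lost in 8 of 15 other settings, including the fits without WT replicate 1 or 2, whereas without WT replicate 3 its value was 1.72 (adjusted p = 2.43e-20). Of 18 PI3K and AKT pathway genes, 5 were higher and 3 lower, and of 5 growth hormone input genes 1 was higher and 1 lower, beside 15.9% higher and 15.2% lower over all genes. The lower count of the first group and both counts of the second lie near those shares. Many genes of the first group are long, and in the longest length group 28.2% of genes were higher. Both tested IGF2 mRNA-binding protein genes were higher, but 1 of them had only 0 to 4 counts in WT and 9 to 17 in Pbrm1 cKO libraries. Igf2bp2 rose from 358 ± 84.6 to 1309 ± 136 normalized counts, by 1.87 on the log2 scale (SE 0.17, DESeq2 adjusted p = 1.52e-26), in cells with almost no Igf2.

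**Figure D5:**
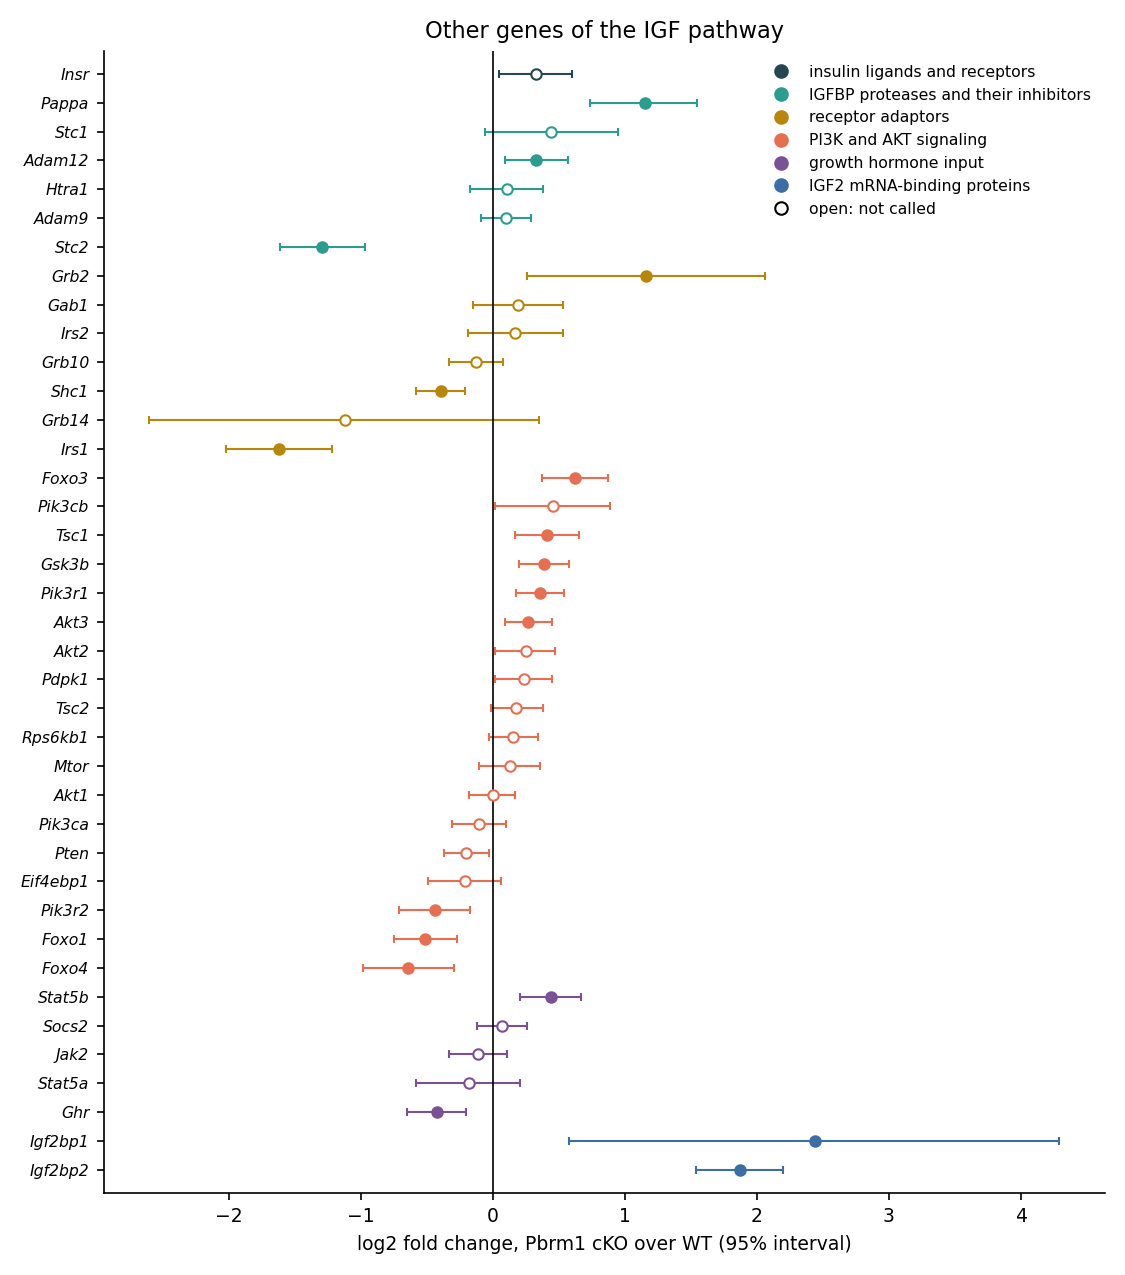
Log2 fold change with 95% interval (x axis, Pbrm1 cKO over WT) of the 39 tested pathway genes, coloured by role, with open circles for genes not called. Pappa and Stc2 lie on opposite sides of 0, and Irs1 has the lowest value.

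Of 11 other tested genes whose proteins have an IGFBP domain, 4 were lower and 0 were higher by DESeq2, beside 15.2% and 15.9% over all genes. Esm1, an endothelial proteoglycan gene, went down from 183 ± 109 to 33.9 ± 5.04 normalized counts, with WT replicate 1 at 59.9 (log2 fold change -2.43, DESeq2 adjusted p = 2.57e-07). Crim1, a membrane regulator of BMPs, fell from 3429 ± 431 to 1978 ± 86.6 (log2 fold change -0.79, DESeq2 adjusted p = 6.21e-11). Htra3, a secreted protease, fell from 2700 ± 128 to 2214 ± 124 (log2 fold change -0.29, DESeq2 adjusted p = 0.00875), a call lost without Pbrm1 cKO replicate 2 or 3. Since Igf2 and Igf2r are imprinted, 17 other imprinted genes were listed, of which 14 were tested, 7 were lower and 2 higher, the latter near the 15.9% over all genes (15.2% were lower). The noncoding RNA Rian (949 ± 95 to 423 ± 34.2) and the transcription factor gene Plagl1 (361 ± 91.7 to 204 ± 13.6) fell, and the amino acid transporter gene Slc38a4 rose (44.9 ± 3.38 to 115 ± 18; SD, n = 3 each). Cdkn1c, a cell cycle inhibitor gene, had 64.4 ± 5.3 and 38 ± 6.44 normalized counts, a call (DESeq2 adjusted p = 0.0349) that was lost in 11 of 15 other settings.

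The nearest gene on either side of each member with a mean of at least 10 normalized counts was also looked up, members themselves left out. Of 18 such neighbours, 5 were higher and 3 lower (median log2 fold change 0.08), beside 15.9% and 15.2% over all genes. Next to the lowered binding proteins, Top2a, the proliferation gene 17.1 kb from Igfbp4, fell (log2 fold change -2.27, DESeq2 adjusted p = 2.48e-31), and Tns4 on the other side had a value of 0.21 (adjusted p = 0.784). Spryd3, 8.13 kb from Igfbp6, rose (0.60, adjusted p = 2.67e-06), and Soat2, 1.01 kb away, had a value of 0.36 (adjusted p = 0.778). Tns3, a tensin gene 1218 kb from Igfbp3, rose (0.97, adjusted p = 2.97e-10), and Adcy1, 27.6 kb away on the other side, had a value of 0.14 (adjusted p = 0.366). Igfbp2 and Igfbp5 are neighbours of each other. On their outer sides lie the ribosomal protein gene Rpl37a, 111 kb from Igfbp2 (-0.19, adjusted p = 0.135), and Gm29183, 875 kb from Igfbp5 (-0.28, adjusted p = 0.787). Igfbp7 lies between Noa1, 39.2 kb away (0.52, adjusted p = 0.0874), and Gm2199, 3493 kb away (-0.66, adjusted p = 0.0607). Neither was called, but limma voom called Noa1 higher (adjusted p = 0.0238) and Gm2199 lower (0.0255), edgeR called Gm2199 (0.0225), and so did DESeq2 without WT replicate 1 (0.031). In the fit lacking WT replicate 3, Noa1 stood at 0.91 (adjusted p = 1.95e-06).

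Around the ligands and receptors, Arrdc4, 503 kb from Igf1r, rose by 1.11 on the log2 scale (DESeq2 adjusted p = 1.67e-08). Ttc23, 190 kb away on the other side, rose by 0.53 (adjusted p = 0.0185), a call lost in 8 of 15 other settings. Nt5dc3, 1020 kb from Igf1, rose by 0.48 (adjusted p = 0.00242), a call lost without Pbrm1 cKO replicate 2. Parpbp, 154 kb away on the other side, had a value of -1.33 (adjusted p = 0.0591). Parpbp was called lower in 4 of 15 other settings, edgeR (0.0301) and limma voom (0.034) among them. R74862, 355 kb from Igf2, fell by 1.05 (adjusted p = 0.031), a call also lost in 8 of 15 other settings. Map3k4, 364 kb from Igf2r (0.02, adjusted p = 0.956), and Gm7162, 50.2 kb from Igf2r (-0.06, adjusted p = 0.933), were not called.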

How the data were processed

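RNA-seq of D4 uterine stromal cells from 3 WT and 3 Pbrm1 cKO samples was analysed. Per the labels and methods, the authors used cutadapt for trimming of single-end reads, HISAT2 for mapping to GRCm38 and featureCounts 1.6.4 (reverse-stranded mode, -s 2) for counting per gene of GENCODE M18. The deposited values are raw counts per library, with the exon length of each gene. By that program's defaults, reads with several mapping positions or overlapping genes are dropped. The labels describe a total RNA kit and the methods poly(A) selection, so which RNA classes were captured is unsettled.

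Symbols came from GENCODE M21 and matched 54079 identifiers (99.7%). Of the genes, 28552 had a count. DESeq2 1.42.0 in R 4.3.3 (Wald test, all 6 samples, no covariates, the study's tool) gave unshrunken log2 fold changes, Pbrm1 cKO over WT, and p-values adjusted by Benjamini-Hochberg over all genes, called under 0.05. Normalized counts are counts divided by DESeq2 size factors, and TPM used the table's exon lengths. A gene with at most 3 counts in every library of a group was taken as at the floor, for counting error only. Promoter windows came from RefSeq (GRCm38.p6), and all 10 genes matched.

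Members and gene lists were chosen with earlier results of these data known. The rule named, of each list, at most the 4 called genes with the largest change and a mean of at least 50 normalized counts, plus Igfbp1, Igfals, Insr, Pappa, H19 and Airn, and neighbours with a mean of at least 10. Csf1r, Adgre1, Igf1os and Polr2b were named for the results beside them. A gene of the lists is not reported here.

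Alternatives were edgeR 4.0.16, limma 3.58.1 voom with a separate spread per group, TMM scaling, low-count filters, no filtering, a test against 0.58 on the log2 scale, a fold filter, removal of the length trend, a replicate block and leaving out each library. On simulated data of 28552 genes made from this comparison, DESeq2 recovered 33 of 68 changes of 0.5, 52 of 64 of 1 and 68 of 68 of 2 on the log2 scale, with 22 false calls. Only these genes were changed, each with a mean of at least 50 normalized counts, and both groups had the same spread. In the data 31.1% of tested genes were called, and the coefficient of variation was 0.16 in WT against 0.0468 in Pbrm1 cKO. The rates may therefore not carry over to the data.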

Additional observations from a re-analysis of the deposited data

How the results depend on the processing

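Each IGF gene except Igf2 was refitted under 15 other settings, and Igfbp2 under those that kept it. All 132 values had the sign of the reported one, and 117 also lay on the same side of the threshold. Igfbp4 and Igfbp6 were called in all 15 settings. When DESeq2 tested against 0.58 on the log2 scale (adjusted p under 0.1), Igf1 (0.2948), Igfbp3 (-0.9539), Igfbp5 (-1.092) and Igfbp7 (-0.4955) were no longer called, and the genes called over the whole table numbered 699 higher and 563 lower. With a filter of more than 1.5-fold, p under 0.01 and adjusted p under 0.1, Igf1 (0.2948) and Igfbp7 (-0.4955) were lost, and 1665 genes were higher and 1452 lower. Removing the length trend lowered Igf1 to 0.1562 and moved the share of called genes that were higher from 51.1% to 48.8%. Igf2r was called by edgeR (0.2181) and limma voom (0.2185), and Igf1r by voom (0.3377), and both were called without WT replicate 1 (0.2425 and 0.467). Over the fits that left out 1 library, values ran from 0.2272 to 0.3607 for Igf1, from 0.2027 to 0.467 for Igf1r and from 0.1802 to 0.2425 for Igf2r. The cause of these differences was not tested. The ratio of summed binding protein levels was 0.5259 from counts scaled by library total with no division by length and 0.5545 from DESeq2 normalized counts divided by exon length, against 0.639 in TPM. Deviations of same-numbered replicates were little correlated (0.114, -0.0515 and 0.0028). No pairing by number was seen, but 3 libraries per group cannot exclude one. A fit with the replicate block changed no call of an IGF gene (Igf1 0.2982, adjusted p = 0.0343) and called 2175 genes higher and 1828 lower, against 2774 and 2658. Of the other named genes refitted, the calls of H19 (adjusted p = 0.0878), Cdkn1c (0.164), Ttc23 (0.0895) and R74862 (0.151) were lost under the block. Counts of called IGF and pathway genes, and values of other named genes, were recomputed in settings added after the data were seen: the number of IGF genes called higher ran from 0 to 3 and lower from 2 to 5, the pathway genes from 1 to 13 higher and from 2 to 9 lower, and none of the other named genes refitted changed sign except 5 that were not called. With the length trend removed, Adcy1 (-0.03231), Map3k4 (-0.01031) and Gm7162 (0.09894) changed sign. Over the fits that left out 1 library, Soat2 ran from -0.1169 to 1.394, Map3k4 from -0.1535 to 0.2294, Gm7162 from -0.2156 to 0.1205 and Gm29183 from -0.5417 to 0.001963. Igf2 and Igfbp2 were at or near the floor of 3 counts, and no difference was detectable there at this depth.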
